A study of Mus musculus with 8 samples.

Results

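The genes described here are the mouse zinc finger protein (Zfp) genes with appreciable coverage in bone marrow-derived macrophages (BMDMs). They were chosen by their symbol, Zfp followed only by digits, and by a mean coverage of at least 20 over the 8 samples. Zfp36, which encodes an mRNA decay factor of another family, was left out. The table held 21080 symbols, of which 353 were such Zfp symbols, and 239 of these were members. The values that chose them were the coverage values themselves, so the level of a member is a description and not a finding. Just outside the threshold lay Zfp811, whose mean was below 20 and rounds to 20, then Zfp583 with 19.6 and Zfp850 with 19.6. Just inside lay Zfp951 with 20.8 and Zfp619 with 20.9. In all 4 groups the mean was at least 20 for 156 members, and 83 had at least 1 group below it. Of these, 63 had both means at 4 h below 20 and so entered through their level at 0 h. Both means at 0 h were below 20 for 2, Zfp558 and Zfp281, which entered through their level at 4 h. For 9 members the mean over both times was below 20 in 1 genotype and not in the other, Zfp667 and Zfp772 among them, which entered through cKO and were called higher there at 0 h.

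RNA-seq was done on BMDMs, which are macrophages grown in culture from bone marrow with M-CSF, from C57BL/6 mice of 2 genotypes. WT denotes LysM Cre littermates of the same sex, and Nudt21-cKO (cKO) denotes Nudt21 fl/fl LysM Cre mice, so that both genotypes carry the Cre, which is driven by the lysozyme M gene and acts in myeloid cells. Each genotype was sampled without stimulation (0 h) and after IFNγ overnight followed by LPS for 4 h, with 2 samples per group, and each sample pooled BMDMs of 2 mice. WT samples carry the replicate numbers 1 and 2 and cKO samples 3 and 4 at both times. The labels give the stimulation for the 0 h samples too, and these were taken as unstimulated from their titles.

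Most Zfp genes encode C2H2 proteins, in which a cysteine pair and a histidine pair hold a zinc ion and fold a short finger that reads a few bases of DNA. Fingers follow each other in arrays, and in mammals the largest group adds a KRAB domain, which recruits TRIM28 (KAP1) and with it SETDB1, a histone H3 lysine 9 methyltransferase, to silence transposable elements and other targets. Nudt21 (CFIm25) is a subunit of the cleavage factor that binds UGUA in the 3' region of pre-mRNA and takes part in the choice of polyadenylation site.

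Proteins predicted from GENCODE M21 on GRCm38 were found for 238 members. A script counted fingers as a cysteine pair 2 residues apart, 12 residues, and a histidine pair 3 to 5 residues apart, and looked for a letter pattern of the KRAB A box in the first 250 residues. By these patterns, 127 members had KRAB and fingers, 67 had 5 or more fingers without KRAB, 35 had 1 to 4 fingers and 9 had none. The median number of fingers was 10 and the most was 33. The members without the pattern were Zfp330, Zfp395, Zfp414, Zfp503, Zfp608, Zfp609, Zfp703, Zfp704 and Zfp839, and no match says only that this spacing was not found. Chromosome 7 held 53 members, chromosome 17 held 34 and chromosome 13 held 20.

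Of the members, 235 had an annotated 3'UTR, with a median length of 1433 bases. The motif TGTA (UGUA in RNA), searched on the transcribed strand only and with no other motif, occurred in 92.8% of these 3'UTRs with a median of 9 copies and 5.86 per kb. In the 10249 other genes with a mean of at least 20 and an annotated 3'UTR, 89.6% held it, with a median of 6 copies, 5.18 per kb and a median length of 1153 bases. The last copy in the annotated 3'UTR is shown for 10 of the members called at 4 h, picked with their values known, because it is the motif that Nudt21 binds. Larger differences among members that were not called, and other called members, are not shown. A match is a sequence description and not a site of binding. Sequences are 5' to 3' on the transcribed strand of GRCm38, with the motif in capitals.
Zfp503 (chr14:21983969-21983998, minus strand): tccgtatatttgaTGTAttaaaaggtttta
Zfp661 (chr2:127574662-127574691, minus strand): gtagataatacctaatgtttTGTAatgtcg
Zfp113 (chr5:138139730-138139759, minus strand): tgcacacacatggTGTAcacatacacaaat
Zfp938 (chr10:82224850-82224879, minus strand): taaatagtaaaatctataTGTAaatgaaaa
Zfp704 (chr3:9427020-9427049, minus strand): acttccacttaataaaagtttttttgTGTA
Zfp984 (chr4:147753993-147754022, minus strand): tttcctattgtccTGTAactaactccaata
Zfp319 (chr8:95323259-95323288, minus strand): tgttttgcctgggTGTAtgtgtgtgcacca
Zfp273 (chr13:67826964-67826993, plus strand): gtttattaattttTGTAaataaaaacaagc
Zfp207 (chr11:80405697-80405726, plus strand): atttgctagcctgTGTAtgattaaatggta
Zfp512 (chr5:31481630-31481659, plus strand): gccctcagtgcccTGTAagtagatgagggt

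These members differed widely in the number of motifs. Zfp704 had an annotated 3'UTR of 11767 bases with 66 copies, Zfp113 one of 4965 bases with 25 copies, and Zfp938 one of 195 bases with 1 copy. Zfp51, which was also called at 4 h, had a 3'UTR of 117 bases with no copy. The 40 members called higher in cKO at 4 h that had a 3'UTR held a median of 4.86 motifs per kb, and the 191 not called held 6.05. Across 235 members, motifs per kb and the log2 fold change between cKO and WT at 4 h had a Pearson r of -0.03, given as a description since all members share the same libraries.

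Values are mean read coverage per base of a gene, which is per length, so levels may be compared between genes. Summed over all genes they came to between 15000000 and 18000000 per sample, and at 4 h the cKO samples (17400000 and 18000000) lay above the WT samples (15600000 and 15000000). The files used here hold these coverage values and no read numbers. At 0 h the coverage of Nudt21 was 718 and 641 in WT against 158 and 172 in cKO. At 4 h it was 547 and 575 in WT and 142 and 115 in cKO. Its log2 fold change was -2.04 ± 0.13 (SE, adjusted p = 0.0462) at 0 h and -2.13 ± 0.16 (adjusted p = 0.0445) at 4 h, and leaving out any 1 sample kept both calls. Of 10 macrophage markers all were found, with a summed coverage of 145000 to 163000 at 0 h and 74700 to 90400 at 4 h. At 4 h, 2 of them were called higher and 1 lower in cKO, and at 0 h 1 was higher and 3 lower. The 7 markers of neutrophils and their precursors summed to between 17500 and 34600, and 1 was called higher in cKO at 4 h. The 2 endothelial markers summed to 146 to 178 in WT and 68.4 to 75.6 in cKO at 0 h, where both were called lower, and to 36 to 55.8 in WT and 23.8 to 27.7 in cKO at 4 h, where 1 was called lower. The 3 fibroblast markers summed to 15.8 to 217, with 1 called higher in cKO at each time. The 3 dendritic cell markers summed to at most 7.18 at 0 h and to 24.9 to 60.9 in WT and 23.3 to 28.3 in cKO at 4 h, where 1 was called higher and 1 lower. The 5 stimulation markers summed to 174 to 308 at 0 h and 353000 to 493000 at 4 h, with 1 called lower in cKO at 0 h and 1 higher at 4 h. Markers of T cells, B cells and NK cells summed to at most 4.36, and those of mast and erythroid cells to at most 10.9, with 0 called. The part of these marker differences in the results below was not tested. In bulk samples, fewer cells of a type and less RNA per cell cannot be told apart.

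Genotypes and times were compared with limma on log2(coverage + 0.1), over every gene whose samples in the comparison averaged 0.5 or more. Calls required more than a 1.5-fold difference and an unadjusted p under 0.05, and p-values printed here were adjusted by Benjamini-Hochberg over all genes tested. A pseudocount understates the change of low genes. The smallest two-sided p that exact permutation of 2 and 2 samples allows for a gene is 0.333. Each replicate is a pool of 2 mice, and the spread behind standard errors and p-values is that between pools, not single mice. limma moderated the variance of each gene towards that of all genes tested, so neither rests on the 2 samples of a group alone.

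To ask which Zfp genes depended on Nudt21 in activated BMDMs, cKO was compared with WT at 4 h. All 239 members were tested. Of these, 41 (17.2%) were called higher and 4 (1.67%) lower in cKO, against 20.8% higher and 4.17% lower among the 14950 genes tested. The median log2 fold change of the members was 0.32 and that of all genes tested was 0.31. With samples shifted to a common median gene (median-centring), 15 members (6.28%) were higher and 13 (5.44%) lower, against 10.4% and 9.9% of all genes, and the median was -0.01. Without cKO replicate 4, 19 were called higher and 1 lower, and without WT replicate 2, 1 was called lower. The cKO pair was above the WT pair without overlap for 114 members and below for 25, against 51.1% and 14.9% of all genes. With an adjusted p under 0.05, 4 members were higher and 0 lower, against 3.33% and 0.528% of all genes, and the fold change rule had called 4 lower with an unadjusted p under 0.05.

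The leading rise was that of Zfp503 (Nolz1), a transcriptional repressor of the NET family that lacks DNA-binding finger arrays. Its coverage at 4 h was 4.58 and 5.67 in WT and 66.2 and 90.1 in cKO, with no overlap. The log2 fold change was 3.89 ± 0.24 (SE, adjusted p = 0.0368), and it kept its call in every fit that left out 1 sample. At 0 h its coverage was 68.3 and 51.8 in WT and 96.4 and 91.6 in cKO. Its level in activated cKO cells thus lay in the range of the unstimulated cells, while in activated WT cells it was far lower. Zfp703, the other NET family gene among the members, had 309 and 196 in WT against 518 and 654 in cKO at 4 h (log2 fold change 1.24 ± 0.31, adjusted p = 0.108). Its call was lost without WT replicate 2 (0.91), cKO replicate 3 (1.41) or cKO replicate 4 (1.07).

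**Figure D1:**
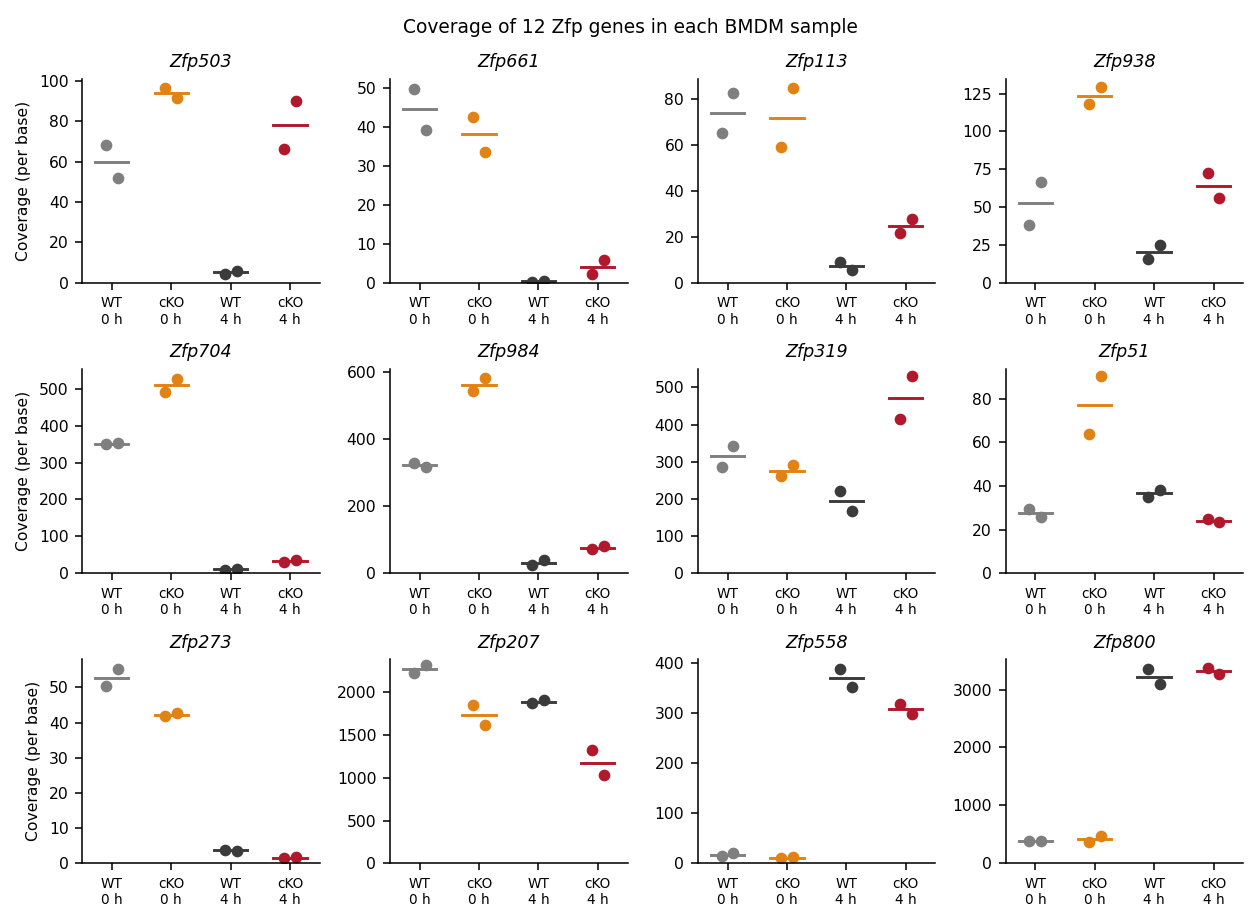
Coverage per base (vertical axis, linear from 0) of 12 Zfp genes in unstimulated (0 h) and IFNγ/LPS-stimulated (4 h) BMDMs of both genotypes. Points are the 2 samples of a group and lines their mean. Zfp503 was near 5 in both WT samples at 4 h and between 66.2 and 90.1 in cKO, while Zfp558 and Zfp800 were higher at 4 h in both genotypes.

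Zfp704 and Zfp395 encode related DNA-binding factors. Zfp704 had a coverage of 8.24 and 12.4 in WT against 30.3 and 35.1 in cKO at 4 h. The log2 fold change was 1.68 ± 0.27 (adjusted p = 0.0681), and the call was lost without cKO replicate 4 (1.57). Its exons overlap an antisense gene, C030034L19Rik, and the library kit does not mark strand, so reads of the pair cannot be told apart. At 0 h it already lay higher in cKO, at 493 and 528 against 350 and 353, which was 0.54 ± 0.11 on the log2 scale and below the fold change rule. Zfp395 at 4 h was 0.396 and 5.24 in WT and 5.1 and 0.974 in cKO, and the groups overlapped.

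Among the KRAB members the largest called rise was that of Zfp661, from a very low level. Its coverage was 0.156 and 0.556 in WT and 2.3 and 5.94 in cKO (log2 fold change 3.21 ± 0.77, adjusted p = 0.102). The groups did not overlap, and the call was lost without WT replicate 1 (2.54) or cKO replicate 4 (2.55). With a pseudocount of 1 the log2 fold change was 1.83. Zfp113 had 9.22 and 5.67 in WT and 21.7 and 27.8 in cKO (1.75 ± 0.33, adjusted p = 0.078), and its call was lost without cKO replicate 3 (1.93) or 4 (1.57). Zfp128 had 5.16 and 6.73 in WT and 11.3 and 21 in cKO (1.37 ± 0.40, adjusted p = 0.128), and its call was lost without WT replicate 1 (1.19), WT replicate 2 (1.56) or cKO replicate 4 (0.93) and in 5 other settings.

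Zfp938, a KRAB gene with 10 fingers, was higher in cKO at both times. At 4 h it had 15.4 and 24.8 in WT and 72.8 and 55.7 in cKO (log2 fold change 1.70 ± 0.33, adjusted p = 0.0804). At 0 h it had 38.4 and 66.6 in WT and 118 and 129 in cKO (1.29 ± 0.34, adjusted p = 0.193). In neither comparison did the groups overlap. The call was lost without cKO replicate 3 (1.51) or 4 (1.89) at 4 h, and likewise without cKO replicate 3 (1.35) or 4 (1.22) at 0 h.

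Zfp984 belongs to a KRAB cluster on chromosome 4 with Zfp992 and Zfp993, which were singled out after their values were seen. Zfp984 had 24.9 and 37.8 in WT against 71.2 and 79.7 in cKO at 4 h (log2 fold change 1.29 ± 0.27, adjusted p = 0.0863). Its call was lost without cKO replicate 3 (1.37) or 4 (1.21). At 0 h it had 329 and 318 in WT and 543 and 581 in cKO (0.80 ± 0.11, adjusted p = 0.108), and this call was kept without any 1 sample. Zfp992 had 91.9 and 100 in WT against 192 and 184 in cKO at 4 h (0.97 ± 0.11, adjusted p = 0.0547), and kept its call without any 1 sample. Zfp993 had 79.6 and 85.5 in WT and 112 and 150 in cKO (0.65 ± 0.20, adjusted p = 0.138). Its call was lost without WT replicate 1 (0.60), WT replicate 2 (0.70) or cKO replicate 4 (0.44). All 3 share at least 300 bases at 95% identity or more with other genes, Zfp984 with Gm13212 and Zfp985, and Zfp992 and Zfp993 with each other and with Zfp991. How reads were split between these copies is unknown, and their values are uncertain.

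Zfp319, with 12 fingers and no KRAB, had 220 and 168 in WT against 414 and 531 in cKO at 4 h (log2 fold change 1.28 ± 0.23, adjusted p = 0.0763). It lost its call without WT replicate 2 (1.09) or cKO replicate 4 (1.11). At 0 h the groups overlapped, with 286 and 343 in WT and 261 and 291 in cKO. Its exons overlap the antisense gene Tepp. With an adjusted p under 0.05 the members higher in cKO were Zfp503, Zfp593, Zfp963 and Zfp213. Zfp213 had 39.4 and 41.6 in WT and 86.9 and 85.5 in cKO (1.09 ± 0.10, adjusted p = 0.0484). Zfp963 had 9.46 and 8.96 in WT and 21.9 and 22.1 in cKO (1.25 ± 0.10, adjusted p = 0.0466). Neither overlapped between the groups, and each kept its call without any 1 sample. Zfp213 overlaps antisense genes and Zfp963 a gene on its own strand, Gm20422.

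The 4 members lower in cKO at 4 h were Zfp273, Zfp207, Zfp512 and Zfp51. Zfp207 (BuGZ), which binds microtubules and loads the checkpoint protein BUB3 at kinetochores, was among the most highly covered members. It had 1870 and 1910 in WT and 1320 and 1030 in cKO (log2 fold change -0.70 ± 0.17, adjusted p = 0.105). The call was lost without WT replicate 1 (-0.72), WT replicate 2 (-0.69) or cKO replicate 4 (-0.52). At 0 h it was also lower, with 2220 and 2320 in WT and 1850 and 1620 in cKO, and there it was not called. Zfp273 had 3.93 and 3.42 in WT and 1.59 and 1.7 in cKO (-1.11 ± 0.13, adjusted p = 0.0553) and kept its call without any 1 sample, although it lost it with a variance trend and shares near-identical sequence with Zfp85. Zfp512 had 30.2 and 35.7 in WT and 22.8 and 19.2 in cKO (-0.65 ± 0.17, adjusted p = 0.11), and its call was lost whichever sample was left out (-0.77 to -0.53) and with a variance trend.

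By the roles of the members, 11 genes of RNA binding, ribosome and spindle were tested, and at 4 h 2 (18.2%) were higher and 1 (9.09%) lower in cKO, beside 20.8% and 4.17% of all genes. Zfp593, whose human counterpart takes part in ribosome assembly, had 175 and 169 in WT and 397 and 388 in cKO (1.19 ± 0.10, adjusted p = 0.0467) and kept its call without any 1 sample. Zfp598, the ubiquitin ligase that senses collided ribosomes, had 220 and 263 in WT and 436 and 406 in cKO (0.81 ± 0.15, adjusted p = 0.0758), and its call was lost without cKO replicate 3 (0.75) or 4 (0.86). Both pairs of groups were apart. Zfp593 overlaps an antisense gene, E130218I03Rik.

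Of 18 members in the list of signalling and promoter factors, 2 (11.1%) were higher and 0 lower in cKO at 4 h, below the 20.8% and 4.17% of all genes. Zfp746 (PARIS), a parkin substrate that represses Ppargc1a, had 87.4 and 83.3 in WT and 171 and 162 in cKO (0.96 ± 0.10, adjusted p = 0.0529). Zfp335, a partner of histone H3 lysine 4 methyltransferase complexes, had 129 and 122 in WT and 224 and 223 in cKO (0.83 ± 0.10, adjusted p = 0.0563). Neither overlapped between the groups, and each kept its call without any 1 sample. Zfp335 overlaps the antisense gene Pcif1. Of the members named at 4 h, Zfp128 (1.04), Zfp319 (0.95), Zfp335 (0.49), Zfp367 (0.49), Zfp598 (0.47), Zfp703 (0.91), Zfp809 (0.29) and Zfp993 (0.31) were not called after median-centring.

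The list of retroelement and imprint silencers held 6 genes, of which 5 were tested (4 of them members) and 1 (20%) was higher in cKO at 4 h, beside 20.8% of all genes. This was Zfp809, which recognises the primer binding site of murine leukemia virus, with 35.3 and 34.8 in WT and 47.1 and 62.4 in cKO (0.63 ± 0.19, adjusted p = 0.135). The call was lost without WT replicate 1 (0.64), WT replicate 2 (0.62) or cKO replicate 4 (0.43). Zfp57 and Zfp708 of this list lay under the mean of 20 and were not members.

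The partners of KRAB proteins form a separate list of 36 genes, of which 35 were tested. At 4 h 6 (17.1%) were higher and 0 lower in cKO, beside 20.8% and 4.17% of all genes. After median-centring 5 (14.3%) were higher and 1 (2.86%) lower, beside 10.4% and 9.9% of all genes. Trim28, the KRAB co-repressor itself, had 390 and 393 in WT and 780 and 843 in cKO (log2 fold change 1.05 ± 0.11, adjusted p = 0.0503). At 0 h it had 1830 and 1820 in WT and 1710 and 1880 in cKO, and the groups overlapped. The difference between the 2 genotype effects was 1.08 ± 0.14 (adjusted p = 0.0323, limma interaction), which did not pass after median-centring (0.81).

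The other 5 were enzymes and scaffolds of silencing. Dnmt3a, a de novo DNA methyltransferase, had 171 and 208 in WT and 601 and 578 in cKO (1.64 ± 0.15, adjusted p = 0.048), and it was called at 0 h too (1.07 ± 0.27). Atf7ip, which stabilises SETDB1, had 74 and 73.8 in WT and 166 and 173 in cKO (1.20 ± 0.10, adjusted p = 0.0466). Gatad2a, a subunit of the NuRD complex, had 517 and 536 in WT and 1020 in both cKO samples (0.95 ± 0.10, adjusted p = 0.0513). None of these overlapped between the groups. Dnmt3b (1.82 ± 0.22) and Morc2a (0.75 ± 0.12), an ATPase recruited by the HUSH complex, were also called. The call of Dnmt3b was lost with a variance trend, and with a pseudocount of 1 its value was 1.10. Morc2a was not called after median-centring (0.41), or without cKO replicate 3 (0.76) or 4 (0.74). Setdb1 had 58.2 and 91.3 in WT and 87.4 and 83 in cKO, and its groups overlapped.

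By protein class, 18 of 127 members with KRAB and fingers, 12 of 67 with 5 or more fingers and no KRAB, 7 of 35 with 1 to 4 fingers and 4 of 9 without a found finger were higher in cKO at 4 h. The medians were 0.22, 0.34, 0.34 and 0.57, beside 20.8% higher and a median of 0.31 for all genes. After median-centring 7, 3, 3 and 2 were higher and 8, 1, 4 and 0 lower in the same order. Of all genes, 10.4% were then higher and 9.9% lower. These counts are a description, and the differences between classes were not tested. Beside them stand other zinc finger families selected at the same mean. Of 32 Zbtb genes 15 were higher (46.9%, median 0.73), of 11 Klf genes 7 (63.6%, median 0.95), of 15 Zkscan and Zscan genes 2 (13.3%) and of 15 Zc3h genes 1 (6.67%). After median-centring 8 Zbtb (25%), 6 Klf (54.5%), 0 Zkscan and Zscan and 0 Zc3h genes were higher, beside 10.4% of all genes.

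**Figure D2:**
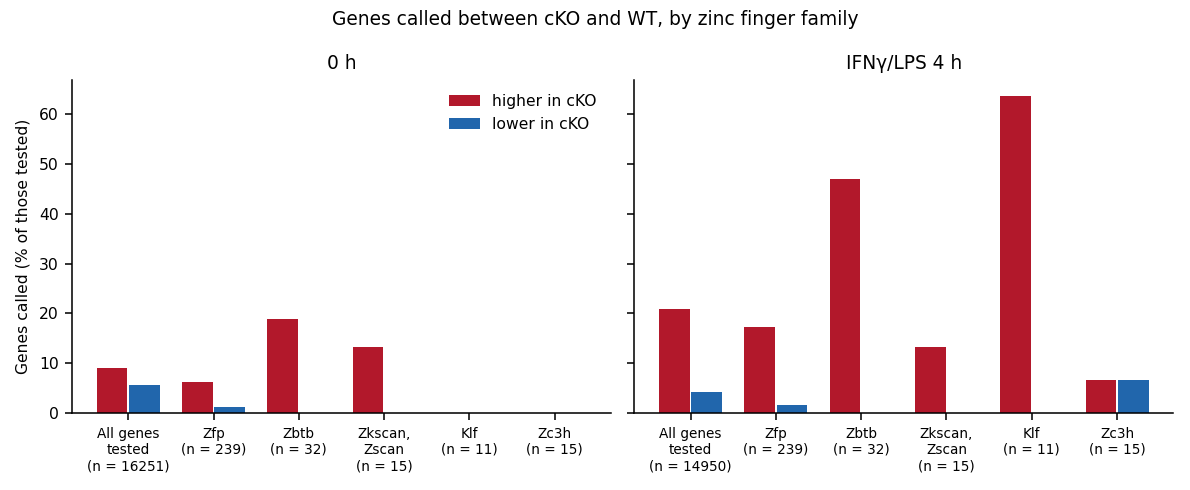
Share of genes called higher (red) or lower (blue) in cKO than in WT at 0 h and at 4 h, as a percentage of the genes tested in each set, for all genes tested and for 5 zinc finger families held to the same minimum mean of 20. The Zfp bars (17.2% higher at 4 h) stand beside 20.8% for all genes, 46.9% for Zbtb and 63.6% for Klf.

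The same comparison without stimulation asked which members differed before activation. At 0 h 15 members (6.28%) were called higher and 3 (1.26%) lower in cKO, against 8.99% and 5.61% of the 16251 genes tested. The median was 0.16, beside 0.10 for all genes. Both cKO samples were above both WT samples for 95 members and below for 36, against 36.1% and 20.9% of all genes. No member passed an adjusted p under 0.05 (0 higher and 0 lower in limma, against 0.701% and 0.326% of all genes), while 15 and 3 passed the fold change rule with its unadjusted p. Without cKO replicate 4, 6 were called higher and 6 lower, and without cKO replicate 3, 1 was lower.

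The largest rise at 0 h was that of Zfp72, an 11-finger gene in which no KRAB pattern was found. It had 57 and 54.5 in WT and 151 and 172 in cKO (log2 fold change 1.53 ± 0.13, adjusted p = 0.0679), and kept its call without any 1 sample. At 4 h it had 0.552 and 4.18 in WT and 9.75 and 10.8 in cKO, which was not called. Zfp667, a KRAB gene with 14 fingers, had 28.8 and 27.7 in WT and 57.3 and 49.7 in cKO (0.92 ± 0.13, adjusted p = 0.111) and also kept its call without any 1 sample. As it entered through this cKO level, its difference is a description. The calls of Zfp72 and Zfp667 were both lost with all 8 samples in 1 fit. The level of Zfp667 at 4 h was at most 4.98 in any sample.

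Of the other rises at 0 h, Zfp930 (0.94 ± 0.27), Zfp617 (0.78 ± 0.20) and Zfp948 (0.77 ± 0.22) were KRAB genes whose groups did not overlap. Their calls were each lost in 3 of the 4 fits that left out 1 sample, with log2 fold changes between 0.53 and 1.12 in those fits. The falls were Zfp658 (-0.66 ± 0.14), Zfp146 (-0.65 ± 0.20) and Zfp691 (-0.61 ± 0.16). Zfp658 had 30 and 35.4 in WT and 21.4 and 19.9 in cKO, Zfp146 had 85 and 88.4 against 47.9 and 64, and Zfp691 had 81.4 and 65.6 against 49.4 and 46.3. Each of these falls was lost in 3 of the 4 fits that left out 1 sample, with log2 fold changes between -0.71 and -0.44 in those fits. With all 8 samples in 1 fit none of the 3 falls was called, and without a filter Zfp930, Zfp948, Zfp146 and Zfp938 were not. Zfp617 has near-identical copies and its value is uncertain.

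Across times, 4 members were called higher in cKO at both, namely Zfp938, Zfp984, Zfp367 and Zfp503, and 0 were lower at both, beside 4.36% and 1.2% of the 14210 genes tested at both times. A further 37 were higher at 4 h only by the call, and 181 were called at neither time. The share over all genes was not computed for these 2 counts. At 4 h alone, 17.2% of members and 20.8% of all genes tested were called higher. The 2 comparisons share no sample, and the Pearson r of their log2 fold changes across 239 members was 0.23, a description across genes of shared processing. Zfp367 had 108 and 121 in WT against 170 and 207 in cKO at 0 h (0.71 ± 0.16), and 23.1 and 29.7 against 41.6 and 52.1 at 4 h (0.83 ± 0.22). Its groups were apart at both times. Its call at 4 h was lost whichever sample was left out (0.65 to 1.01), and at 0 h without WT replicate 1 (0.63), WT replicate 2 (0.79) or cKO replicate 4 (0.57). The call of Zfp503 at 0 h (0.66 ± 0.19, adjusted p = 0.212) was lost without WT replicate 2 (0.46), cKO replicate 3 (0.62) or cKO replicate 4 (0.70), without a filter and after median-centring (0.57).

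**Figure D3:**
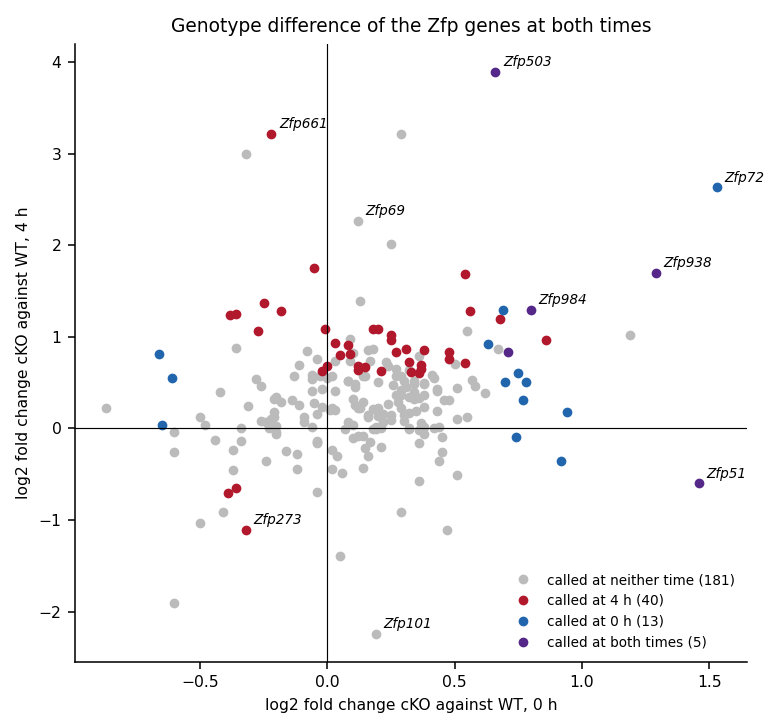
Log2 fold change between cKO and WT at 0 h (horizontal) and at 4 h (vertical), with 1 point per member. Colours give the time at which a member was called (fold change above 1.5, unadjusted p under 0.05). Most points were grey (181), Zfp503 stood at 3.89 at 4 h and Zfp51 was the member called in opposite directions.

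An interaction term over all 8 samples tested whether the effect of genotype changed with stimulation. With an adjusted p under 0.05 the effect was larger at 4 h for 2 members and smaller for 1, against 2.28% and 0.761% of the 16284 genes tested. The larger ones were Zfp503, with a difference of 3.24 ± 0.32 (adjusted p = 0.0161), and Zfp963, with 1.61 ± 0.21 (adjusted p = 0.0327), which did not pass after median-centring (1.34). Without WT replicate 2 at 4 h, 9 were larger, and without cKO replicate 4 at 4 h, 0. No interaction call among the members was left when samples sharing a replicate number were treated as pairs. Zfp963 at 0 h had 56.9 and 52.8 in WT and 48.7 and 37.5 in cKO, below WT and not called, whereas at 4 h it was higher in cKO.

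Zfp51, a KRAB gene with 19 fingers, was the member called in opposite directions. At 0 h it had 29.6 and 25.6 in WT and 63.8 and 90.3 in cKO (log2 fold change 1.46 ± 0.24, adjusted p = 0.123). At 4 h it had 35 and 38.1 in WT and 24.9 and 23.3 in cKO (-0.60 ± 0.11, adjusted p = 0.0789). The difference between the effects was -2.06 ± 0.28 (adjusted p = 0.034). The interaction lost its call for Zfp503 without cKO replicate 3 at 0 h (3.27), cKO replicate 4 at 0 h (3.20) or cKO replicate 4 at 4 h (3.01). Zfp963 (1.55 to 1.66) and Zfp51 (-2.16 to -1.96) lost theirs without any of the WT samples or of the cKO samples at 4 h. The call of Zfp51 at 0 h was lost without WT replicate 2 (1.36), and at 4 h without WT replicate 2 (-0.54), cKO replicate 3 (-0.65) or cKO replicate 4 (-0.55) or with a pseudocount of 1 (-0.58).

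The response to stimulation was compared within each genotype. In WT, 190 members (79.5%) fell and 8 (3.35%) rose from 0 h to 4 h, against 55.1% and 11.9% of the 16002 genes tested. In cKO, 186 (77.8%) fell and 12 (5.02%) rose, against 53.2% and 13.7% of 16223 genes. The median log2 fold change of the members was -1.79 in WT and -1.49 in cKO, beside -1.27 and -1.05 for all genes. Since 63 members entered through their level at 0 h, the same was computed for the 10877 other genes chosen at the same mean of 20. Of these, 61.9% fell in WT with a median of -1.08 and 59.1% in cKO with a median of -0.90. No test of the difference between the members and these genes was made.

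The median gene itself moved by the amounts above, so each sample was also centred on it. On that scale 71 members (29.7%) were lower and 39 (16.3%) higher in WT, against 22.4% and 33.5% of all genes. In cKO 79 (33.1%) were lower and 44 (18.4%) higher, against 23.2% and 32.7%, and the medians of the members were -0.34 and -0.28. The other genes with a mean of 20 had medians of 0.38 and 0.31 when centred in this way. Without WT replicate 2 at 0 h, 122 members fell and 5 rose in WT. Members took 0.306% to 0.318% of all coverage at 0 h and 0.159% to 0.171% at 4 h. The median coverage of a member was between 121 and 151 at 0 h and between 30.3 and 48.4 at 4 h, and the samples of the 2 times did not overlap.

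**Figure D4:**
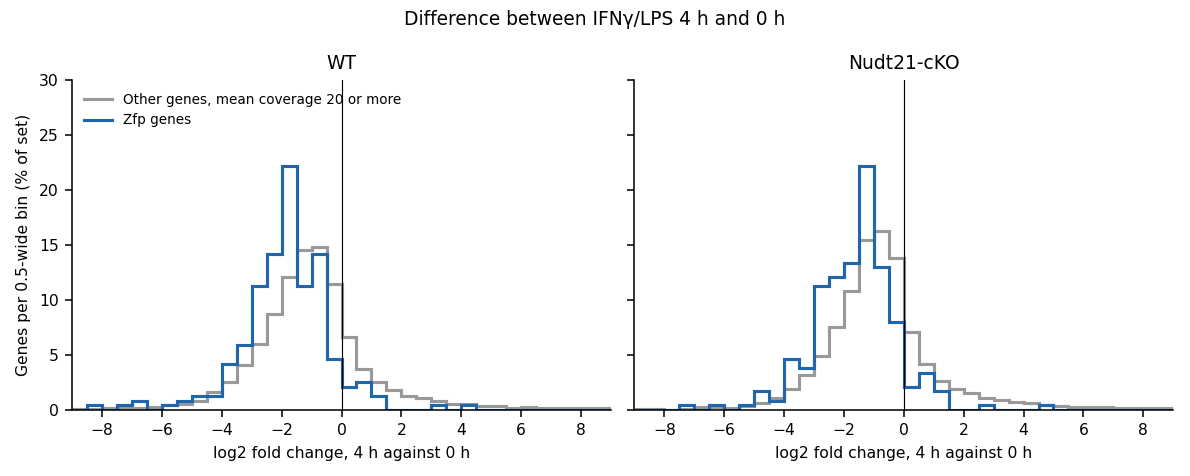
Distribution of the log2 fold change from 0 h to 4 h in WT (left) and cKO (right), in bins 0.5 wide, as a percentage of the Zfp genes (blue) and of other genes held to the same minimum mean (grey). The axis runs from -9 to 9. The medians were -1.79 for Zfp genes and -1.08 for the others in WT, and -1.49 and -0.90 in cKO.

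Both samples at 4 h lay below both at 0 h for 216 members in WT and 212 in cKO, against 69% and 67.9% of all genes, and above for 13 and 16, against 16.6% and 19.3%. A fall of at least 4-fold was seen for 91 members in WT and 85 in cKO, against 27.5% and 23.8% of all genes. The fall was called in both genotypes for 168 members and the rise in both for 7, beside 47.1% and 10.4% of the 15322 genes tested in both. The 2 comparisons share no sample, and their log2 fold changes had a Pearson r of 0.88 across 239 members.

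The largest called falls in WT were those of Zfp395, Zfp69, Zfp661, Zfp704 and Zfp72. Of these, Zfp395, Zfp661 and Zfp72 lay below the threshold for members in every sample at 4 h. They entered through their level at 0 h, so their falls are a description. Zfp41 (-6.66) and Zfp970 (-5.51) had larger differences than Zfp704 and were not called. Zfp395 fell from 521 and 515 to 0.396 and 5.24 in WT (log2 fold change -8.31 ± 1.38, adjusted p = 0.0167). In cKO it fell from 425 and 427 to 5.1 and 0.974 (-7.49 ± 0.93, adjusted p = 0.00866). Its related gene Zfp704 fell from 350 and 353 to 8.24 and 12.4 in WT (-5.10 ± 0.26, adjusted p = 0.00296), and from 493 and 528 to 30.3 and 35.1 in cKO (-3.96 ± 0.12, adjusted p = 0.00139). Both members of this pair thus fell in both genotypes. The call of Zfp395 was lost without either sample at 0 h in WT (-8.31 and -8.32) and in cKO (-7.50 and -7.49), where the lone sample was assumed to vary like the other group. The calls of Zfp69 (-7.03 ± 1.63) and Zfp72 (-5.06 ± 1.09) were likewise lost without either WT sample at 0 h, with values from -7.09 to -6.96 and from -5.10 to -5.03. Zfp69 is listed at 0 in WT replicate 1 at 4 h, so its fitted value depends on the pseudocount.

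In cKO the 5 largest falls were those of Zfp395, Zfp101, Zfp667, Zfp41 and Zfp69. Zfp101 fell from 34.5 and 72.9 to 2.91 and 0.0601 (-6.18 ± 1.78, adjusted p = 0.0567), and Zfp667 from 57.3 and 49.7 to 0.254 and 4.98 (-5.32 ± 1.57, adjusted p = 0.0597). At 4 h the replicates of both genes lay far apart. Both calls were lost without either cKO sample at 0 h, with values from -6.72 to -5.64 and from -5.42 to -5.21, and likewise after median-centring (-4.97 and -4.11) and without a filter. The fall of Zfp667 starts from the level through which it became a member. Zfp101 and Zfp41 lay above the threshold for members at 0 h in cKO and below it at 4 h, so their falls are a description too. Zfp41 fell from 91.1 and 86.6 to 2.26 and 3.69 (-4.89 ± 0.29, adjusted p = 0.00244). In WT it is listed at 0 in replicate 1 at 4 h and was not called.

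The rise of Zfp558, a KRAB gene with 9 fingers, was the largest among the members in both genotypes. As Zfp558 entered through its level at 4 h, this rise is a description. Its coverage went from 14.5 and 20.7 to 389 and 352 in WT (log2 fold change 4.41 ± 0.24, adjusted p = 0.00317), and from 10.6 and 12.3 to 319 and 298 in cKO (4.74 ± 0.12, adjusted p = 0.00119). Zfp800 went from 386 and 394 to 3350 and 3090 in WT (3.04 ± 0.13, adjusted p = 0.00248), and from 376 and 465 to 3370 and 3270 in cKO (2.99 ± 0.15, adjusted p = 0.00199). With these values Zfp800 had the highest mean coverage of the members. Its exons overlap an antisense gene, 6530409C15Rik. Both genes kept their calls without any 1 sample, and for both the genotypes were not called apart at either time.

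Zfp263 rose from 680 and 735 to 1850 and 1640 in WT (1.30 ± 0.14, adjusted p = 0.00775) and from 644 and 797 to 1230 and 1340 in cKO (0.84 ± 0.16, adjusted p = 0.0212). Zfp281, a regulator of pluripotent stem cells, went from 21 and 11.3 to 43.1 and 33.8 in WT (1.30 ± 0.40, adjusted p = 0.0637) and from 17.7 and 21.5 to 53.2 and 48 in cKO (1.37 ± 0.15, adjusted p = 0.00684). Its call in WT was lost without WT replicate 2 at 0 h (0.86), WT replicate 1 at 4 h (1.13) or WT replicate 2 at 4 h (1.48), or without a filter. Zfp281 also entered through its level at 4 h, so its rise is a description. Zfp131, a BTB domain factor, rose in WT (0.90 ± 0.14) and in cKO (0.68 ± 0.08). Zfp719 rose by 1.22 ± 0.20 in cKO, lost without cKO replicate 4 at 0 h (1.07), and Zfp382 by 1.21 ± 0.15. Zfp456 rose in WT by 1.09 ± 0.25, lost without either WT sample at 0 h (1.19 and 0.98), and its value is uncertain because it shares sequence with Rsl1 and Zfp429.

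Zfp319 was called in opposite directions by stimulation in the 2 genotypes. It fell in WT from 286 and 343 to 220 and 168 (-0.70 ± 0.22, adjusted p = 0.0698) and rose in cKO from 261 and 291 to 414 and 531 (0.77 ± 0.18, adjusted p = 0.0355). The interaction of genotype and time was 1.47 ± 0.30 with an adjusted p of 0.0744 and did not pass, though it did with a variance trend (1.47). Relative to the median gene the WT value was 0.75, so the direction in WT depends on the scale. The WT call was lost whichever sample was left out (-0.90 to -0.51), and the cKO call without cKO replicate 3 at 0 h (0.69), cKO replicate 4 at 0 h (0.85) or cKO replicate 4 at 4 h (0.59).

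Of the 5 members with the highest mean coverage, Zfp706 and Zfp710 fell in WT, while Zfp207 was not called (-0.26 ± 0.12). Zfp706, which encodes a short single-finger protein, went from 2160 and 1730 to 620 and 673 in WT (-1.58 ± 0.18, adjusted p = 0.00834), and Zfp710 from 1530 and 1600 to 397 and 557 (-1.73 ± 0.23, adjusted p = 0.0108). Relative to the median gene these were -0.13 and -0.28. Of the 33 members in the role lists, 25 fell and 3 rose in WT and 21 fell and 3 rose in cKO, beside 55.1% and 11.9% of all genes in WT and 53.2% and 13.7% in cKO. For 14 of the 25 that fell in WT, the value relative to the median gene was above 0. The 2 members that fell most in WT were Zfp395 and Zfp608 (-3.79 ± 0.16) in the signalling list, Zfp809 (-2.58 ± 0.12) and Zfp932 (-1.83 ± 0.25) in the retroelement list, and Zfp106 (-1.77 ± 0.16) and Zfp706 in the RNA list. The call of Zfp932 was lost without either WT sample at 0 h (-1.83 in both). After median-centring Zfp932 (-0.38), Zfp106 (-0.31) and Zfp706 were not called.

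Of 35 co-repressor genes, 25 (71.4%) fell and 3 (8.57%) rose in WT, beside 55.1% and 11.9% of all genes. In cKO 25 fell and 3 rose, beside 53.2% and 13.7% of all genes. After median-centring 10 (28.6%) were lower and 10 (28.6%) higher in WT with a median of 0.22. For all genes these were 22.4%, 33.5% and 0.18. In cKO 10 (28.6%) were lower and 11 (31.4%) higher with a median of 0.09, beside 23.2%, 32.7% and 0.15. Trim28 fell from 1830 and 1820 to 390 and 393 in WT (-2.22 ± 0.12, adjusted p = 0.0031), and Setdb1 from 439 and 518 to 58.2 and 91.3 (-2.71 ± 0.30, adjusted p = 0.00777). In cKO Trim28 fell from 1710 and 1880 to 780 and 843 (-1.14 ± 0.11, adjusted p = 0.00494). Relative to the median gene Trim28 stood at -0.77 in WT and 0.06 in cKO.

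By protein class, the median in WT was -2.0 for KRAB and fingers, -1.64 for 5 or more fingers without KRAB, -1.30 for 1 to 4 fingers and -2.75 for no finger found. In cKO these were -1.83, -1.17, -1.22 and -1.63. The fall was called in WT for 102 of 127 members with KRAB (80.3%), 51 of 67 (76.1%), 27 of 35 (77.1%) and 9 of 9 in the same order, beside 55.1% of all genes. After median-centring 46 (36.2%), 14 (20.9%), 5 (14.3%) and 6 (66.7%) were lower, with medians of -0.55, -0.19, 0.15 and -1.30. On that scale 13, 16, 8 and 2 were higher. Of all genes, 22.4% were lower and 33.5% higher, with a median of 0.18. The number of fingers and the log2 fold change in WT had a Pearson r of 0.05 across 238 members. Mean coverage on the log2 scale and the log2 fold change in WT had an r of 0.36, and the part of the level in these class medians was not tested. On chromosomes 7, 17 and 13 the medians in WT were -1.99, -2.09 and -1.83, with 42 of 53, 30 of 34 and 16 of 20 members called lower at 4 h.

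**Figure D5:**
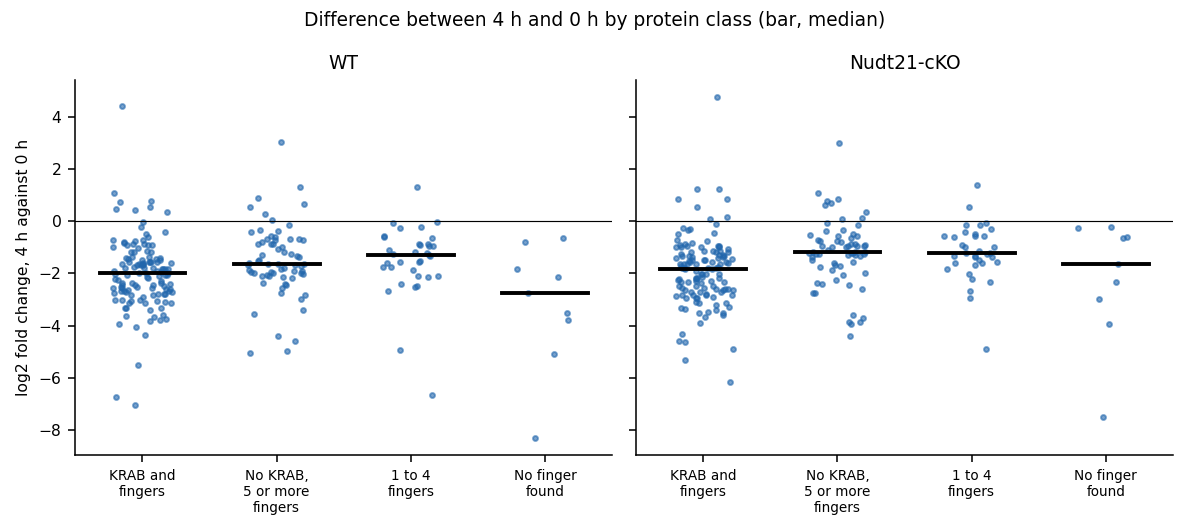
Log2 fold change from 0 h to 4 h of each member (points) by protein class in WT (left) and cKO (right), with bars at the median of a class. The KRAB class had a median of -2.0 in WT and -1.83 in cKO, and its highest point is Zfp558.

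Exons of 57 members overlap an antisense exon, 21 overlap a gene on the same strand, and 30 have a near-identical copy of at least 300 bases at 95% identity.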

How the data were processed

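RNA-seq of 8 BMDM samples was used, 2 in each of 4 groups. Per the submitters' processing notes, the authors aligned reads to mm10 (GRCm38) with HISAT2 2.2.1 and quantified genes with StringTie 2.1.7. They deposited 1 table for each time with a signal per gene and sample, read here as mean coverage per base from its values, and their fold changes, p-values and adjusted p-values, which were not used (0 per-sample columns were left unused). The files hold no read numbers, and precision rests on the 2 samples of a group. Tables were joined by symbol.

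Comparisons were fitted in R 4.3.3 with limma 3.58.1, on coverage plus 0.1 in log2 and without rescaling, for genes averaging at least 0.5, and the fits were tested on simulated data. The design allowed for counts, and since the values are coverage no count test was run. Annotation was GENCODE M21, with blastn 2.17.0 and Biopython 1.88 for copies. The members and lists were chosen with earlier results of these data known. Named genes were those with the 8 largest rises and falls per genotype comparison among members called without overlap, calls at both times, interactions, the 5 largest called rises and falls per stimulation comparison, the 5 highest means and called genes of the role and co-repressor lists. Zfp41 and Zfp970 in WT, Zfp131, Zfp213, Zfp319 (stimulation and interaction), Zfp703, Zfp772, Zfp963 (4 h), Zfp992, Zfp993, the members of opposite direction without an interaction call, and the role-list genes of the stimulation comparison were named after their values were seen. Alternatives covered pseudocount, filter, scaling, variance trend, samples in the fit, each sample left out, a replicate block and the member minimum.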

Additional observations from a re-analysis of the deposited data

Results flagged for a closer look

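By the interaction test, 3 members had a genotype effect that was not the same at both times. The differences were 3.24 for Zfp503, 1.61 for Zfp963 and -2.06 for Zfp51 on the log2 scale. With the replicate number as a block, none of these calls held. Each lost its call in at least 1 of the 8 fits that left out 1 sample, 3 fits for Zfp503 and 6 each for Zfp963 and Zfp51.

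In 17 members, Zfp963 and Zfp51 among them, both cKO samples lay on one side of both WT samples at 0 h and on the other side at 4 h. Of these, 13 were lower in cKO at 0 h and higher at 4 h and 4 the reverse, beside 7.11% and 2.71% of the genes tested at both times. Of the first kind, the change of the effect was 1.62 for Zfp703, 1.47 for Zfp658, 1.23 for Zfp760, 1.16 for Zfp691, 0.82 for Zfp608, 0.72 for Zfp24, 0.70 for Zfp668, 0.63 for Zfp622, 0.47 for Zfp516, 0.45 for Zfp397, 0.38 for Zfp110 and 0.37 for Zfp865. Of the second kind it was -1.58 for Zfp94, -1.02 for Zfp456 and -0.93 for Zfp160. The interaction test did not pass for these 15, with adjusted p-values from limma between 0.0753 and 0.26. For Zfp658 it passed without WT replicate 2 at 4 h (1.99), and for Zfp703 with a variance trend (1.62). Of these 15, Zfp703, Zfp658 and Zfp691 were called at 1 time and the others at neither, and the alternatives were run only for these 3.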

How the results depend on the processing

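With median-centring and with quantile normalization, the members higher in cKO at 4 h numbered 15 and 15 in place of 41, those lower 13 and 15 in place of 4, and the median log2 fold change turned from 0.32 to -0.01 and -0.02. With equal summed coverage these were 24, 10 and 0.11. The median difference of the genotype effect turned from 0.19 to -0.07 and -0.07. For stimulation, 39 and 30 members rose in WT in place of 8 and 71 and 73 fell in place of 190, with medians of -0.34 and -0.43 in place of -1.79. In cKO 44 and 35 rose in place of 12 and 79 and 86 fell in place of 186, with medians of -0.28 and -0.38 in place of -1.49. The value of Zfp319 in WT turned from -0.70 to 0.75 and 0.42. At 0 h, 5 members were lower after centring and 6 with equal sums, in place of 3.

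With Benjamini-Hochberg adjustment 4 were higher and 0 lower in cKO at 4 h, and 0 and 0 at 0 h. Without a filter 9 were higher at 0 h in place of 15, and with all 8 samples in 1 fit 1 was lower. A member minimum of 50 gave 2 lower at 4 h and 0 lower at 0 h, and a minimum of 5 gave 23 higher and 7 lower at 0 h. Interaction calls, 2 larger and 1 smaller, became 6 and 2 without a filter, 1 larger after centring, quantile normalization or equal sums, 8 larger with a variance trend, 1 and 0 with a minimum of 50, and 4 and 2 with a minimum of 5.

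Leaving out each sample in turn gave 19 to 61 higher and 1 to 6 lower at 4 h with medians of 0.23 to 0.45, and 6 to 16 higher and 1 to 6 lower at 0 h with medians of 0.09 to 0.22. Interaction calls ran from 0 to 9 larger (0 without cKO replicate 4 at 4 h, 9 without WT replicate 2 at 4 h) and from 0 to 1 smaller, with medians of 0.02 to 0.33. In WT 5 to 7 rose and 122 to 180 fell, with medians of -1.85 to -1.57, and in cKO 9 to 12 rose and 136 to 173 fell, with medians of -1.62 to -1.37. Calls held in each such fit for 8 of 23 called members followed at 4 h and 3 of 13 at 0 h. For stimulation they held for 10 of 18 followed in WT and 10 of 16 in cKO. They held for none of the 3 interactions (Zfp503, Zfp963 and Zfp51). Those followed for stimulation include Zfp945 in both genotypes and Zfp628, Zfp658 and Zfp513 in cKO, which are not described above. The named calls of Zfp704 and Zfp263 in cKO, Zfp710 in WT and Zfp772 at 0 h were not followed.

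Replicate numbers recur at both times. Deviations of same-numbered samples correlated at 0.0204 in WT and 0.0237 in cKO, which gave no sign of pairing. These deviations also hold the noise of single samples, so they cannot exclude that the numbers pair samples. With a replicate block the interaction gave 0 larger and 0 smaller (Zfp503, Zfp963 and Zfp51 lost their calls), and stimulation 7 rises and 181 falls in WT and 11 and 175 in cKO. No count test (DESeq2, edgeR) was run on these coverage values. The files hold no read numbers, and 2 samples per group leave the spread itself poorly known.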
